A study of Mus musculus with 2 samples.

Results

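The 10 genes described here encode transcription factors of the C/EBP family (Cebpa, Cebpb, Cebpd and Cebpe) and proteins of neutrophils (Elane, Ngp, Camp, Csf3r, Cxcr2 and S100a8). They were chosen by name, 10 of 21938 protein-coding genes of the basic GENCODE vM21 annotation of the mouse assembly mm10. The locus of each gene was its body with 40 kb to either side. Open chromatin was measured by DNase-seq, in which accessible DNA is cut in nuclei by DNase I and the cut ends are sequenced. There was 1 group, spleen tissue of female B6CASTF1/J mice aged 36 days, hybrids of the C57BL/6 and CAST strains, with no treatment stated. It had 2 libraries, called biological replicates 1 and 2, which come from differently numbered females by their descriptions but carry the same donor entry, so that their spread may in part be technical. No comparison between groups exists, and values are given per library.

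C/EBP proteins are leucine zipper factors that bind DNA as dimers. In the mouse, C/EBPα is needed for the progenitors from which granulocytes arise, C/EBPβ for granulocyte production under infection, and C/EBPε for the last steps of neutrophil maturation and for the secondary granule proteins. Neutrophils form in the bone marrow, where granule protein genes are transcribed at successive stages before release into blood, and the spleen holds mostly lymphocytes with a smaller share of myeloid cells.

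The sequences below are shown because the results turn on them. They are the parts of the strongest promoter peaks of Cebpa, Cebpb and Cebpd, by mean place in the rankings of both libraries, that lie before the start site, the peaks in the windows of known distal enhancers of Cebpa and Cebpe, and a distal peak of Csf3r that holds a C/EBP pattern. All are reference sequence of mm10, not that of the CAST chromosome, read on the strand of the gene, and capitals mark bases that lay in a footprint, a short stretch protected from cutting, in both libraries.
Cebpa promoter, chr7:35119141-35119292, plus strand: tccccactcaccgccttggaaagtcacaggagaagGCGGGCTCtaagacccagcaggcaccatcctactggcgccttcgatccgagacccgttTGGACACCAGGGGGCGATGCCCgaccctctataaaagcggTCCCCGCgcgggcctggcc
Cebpb promoter, chr2:167688821-167688914, plus strand: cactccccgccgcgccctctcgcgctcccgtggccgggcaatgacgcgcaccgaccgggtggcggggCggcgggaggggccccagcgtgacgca
Cebpd promoter, chr16:15887141-15887285, plus strand: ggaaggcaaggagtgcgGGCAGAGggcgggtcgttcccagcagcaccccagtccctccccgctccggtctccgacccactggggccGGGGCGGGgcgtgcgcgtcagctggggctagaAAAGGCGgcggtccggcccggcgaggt
Cebpa distal window, chr7:35156526-35156689, plus strand: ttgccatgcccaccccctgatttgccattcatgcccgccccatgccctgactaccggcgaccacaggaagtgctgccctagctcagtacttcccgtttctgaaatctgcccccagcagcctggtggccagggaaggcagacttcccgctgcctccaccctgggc
Cebpe distal window, chr14:54705961-54706140, minus strand: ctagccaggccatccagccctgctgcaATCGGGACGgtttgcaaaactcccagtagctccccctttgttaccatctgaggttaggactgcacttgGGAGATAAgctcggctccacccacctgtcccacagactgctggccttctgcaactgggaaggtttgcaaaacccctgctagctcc
Csf3r distal peak, chr4:126019081-126019280, plus strand: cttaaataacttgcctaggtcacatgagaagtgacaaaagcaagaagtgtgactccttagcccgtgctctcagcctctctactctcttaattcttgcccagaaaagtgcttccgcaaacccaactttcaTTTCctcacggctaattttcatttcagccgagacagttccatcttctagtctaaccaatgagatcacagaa
The pattern of the C/EBP family searched for was TTGCNNAA, on both strands. The Cebpe window holds it 3 times, with first bases at 39, 141 and 159 counted from the first base printed. The Csf3r peak holds it as ttccgcaa, which is the minus strand form. The Cebpa distal window does not contain these letters.

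Replicate 1 had 42454 peaks in the shorter and stricter of its 2 deposited lists and replicate 2 had 60683, or 1.43 times as many. Their longer lists had 61285 and 89476 peaks, and 133725 and 246700 footprints were deposited. Total read depth is unknown. In each library 6 of 6 B cell genes and 0 of 5 liver genes had a peak at their promoter. These lists were chosen with earlier results of these data known, so they are no independent check of the label. Lists of T cell, macrophage and erythroid genes, given below, had shares between these. Over all protein-coding genes the share was 53.4% in replicate 1 and 56.9% in replicate 2. In bulk tissue, fewer cells with an open site and a less open site in each cell cannot be told apart.

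The promoters of Cebpa, Cebpb and Cebpd were open in both libraries and those of the 6 neutrophil protein genes in neither. A peak of the shorter list lay within 1 kb of an own start site of 3 of 10 genes in replicate 1 and of 4 in replicate 2, the additional gene being Cebpe. Over all protein-coding genes the share was 53.4% in replicate 1 and 56.9% in replicate 2. In both libraries together it was 3 of 10 members, against 53.1% of all protein-coding genes. With the longer list 3 members had such a peak in both libraries, against 56.8% of all protein-coding genes, and S100a8 gained one in replicate 2.

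The open and closed promoters also differed in CpG content, given as the observed over the expected number of CpG dinucleotides within 500 bases of the start sites. It was 0.891 at Cebpa, 1.01 at Cebpb and 0.859 at Cebpd, all above the median of 0.553 over all protein-coding genes. It was 0.370 at Cebpe and between 0.173 at Cxcr2 and 0.287 at Ngp for the 6 neutrophil protein genes, all below that median. Of the 3 CpG-rich members 3 had a peak in both libraries, against 82.7% of all CpG-rich promoters. Of the 7 CpG-poor members 0 had one in both, against 23.6% of all CpG-poor promoters. The 4 C/EBP genes and the 3 CpG-rich members differ by Cebpe alone, and with these 10 genes the parts of CpG content and gene group cannot be told apart.

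**Figure D1:**
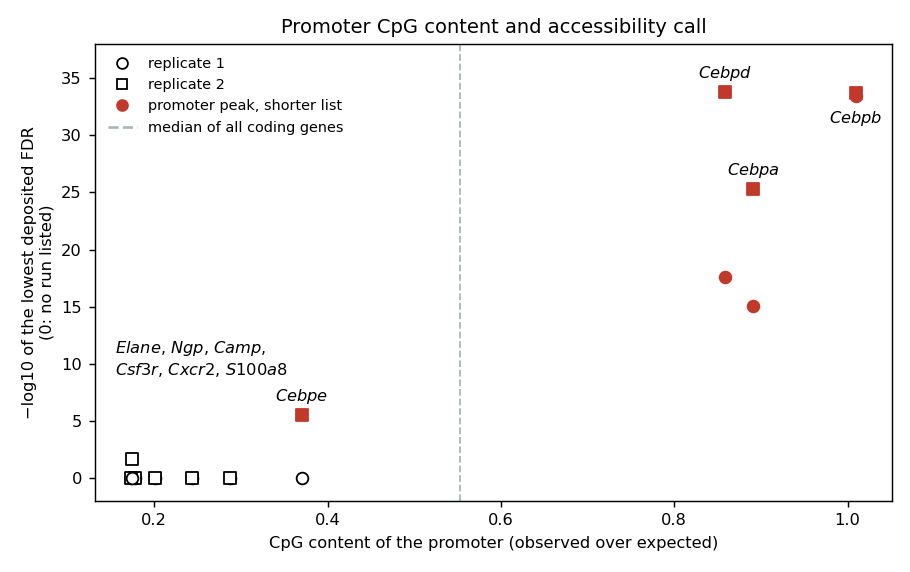
CpG content of each promoter (observed over expected, horizontal) against −log10 of the lowest deposited false discovery rate within 1 kb of its start sites (vertical, 0 where no run was listed), with circles for replicate 1, squares for replicate 2 and filled red symbols where a promoter peak was called. Cebpa, Cebpb and Cebpd stand apart at the upper right, Cebpe has a call in replicate 2 alone, and of the 6 neutrophil protein genes S100a8 in replicate 2 is the 1 above 0.

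The closed promoters were also read in the deposited cut rate track, which lists runs of bases with a false discovery rate (FDR) under 0.05. Signal weaker than this is not listed, so 0 listed bases cannot tell weak signal from none. A listed run lay within 1 kb of a start site for 58.4% of all protein-coding genes in replicate 1 and 63.0% in replicate 2. Elane, Ngp, Camp, Csf3r and Cxcr2 had 0 listed bases in either library. S100a8 had 0 in replicate 1 and 65 in replicate 2, with a lowest FDR of 0.0226. Cebpe had 0 listed bases in replicate 1 and 264 in replicate 2, with a lowest FDR of 3.07e-06. By contrast the lowest FDR was 8.23e-16 and 4.98e-26 at Cebpa, 3.52e-34 and 2.01e-34 at Cebpb, and 2.32e-18 and 1.54e-34 at Cebpd, in replicates 1 and 2. In each library the members with a listed run were those with a promoter peak in the longer list. The track is therefore no separate evidence.

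A wider window, the gene body with 1 kb to either side, was also without a peak of the shorter list at the 6 neutrophil protein genes. It contains the promoter window already found empty, so the count is not separate support. Within the gene body and 1 kb to either side 6 of 10 members had no such peak in either library, namely Elane, Ngp, Camp, Csf3r, Cxcr2 and S100a8, against 33.7% of all protein-coding genes. The nearest peak began 2307 and 2333 bases from the start site of Elane in replicates 1 and 2, 5275 and 5270 bases from that of Csf3r, and 7947 bases from that of Ngp in each. At Camp the distance was 12904 bases and at S100a8 15818 bases in each library, and at Cxcr2 it was 28549 and 19786 bases. The medians over all protein-coding genes were 770 and 270 bases. The 6 neutrophil protein genes had no peak within 1 kb of a start site. Distances above these medians were therefore fixed and are no separate result.

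**Figure D2:**
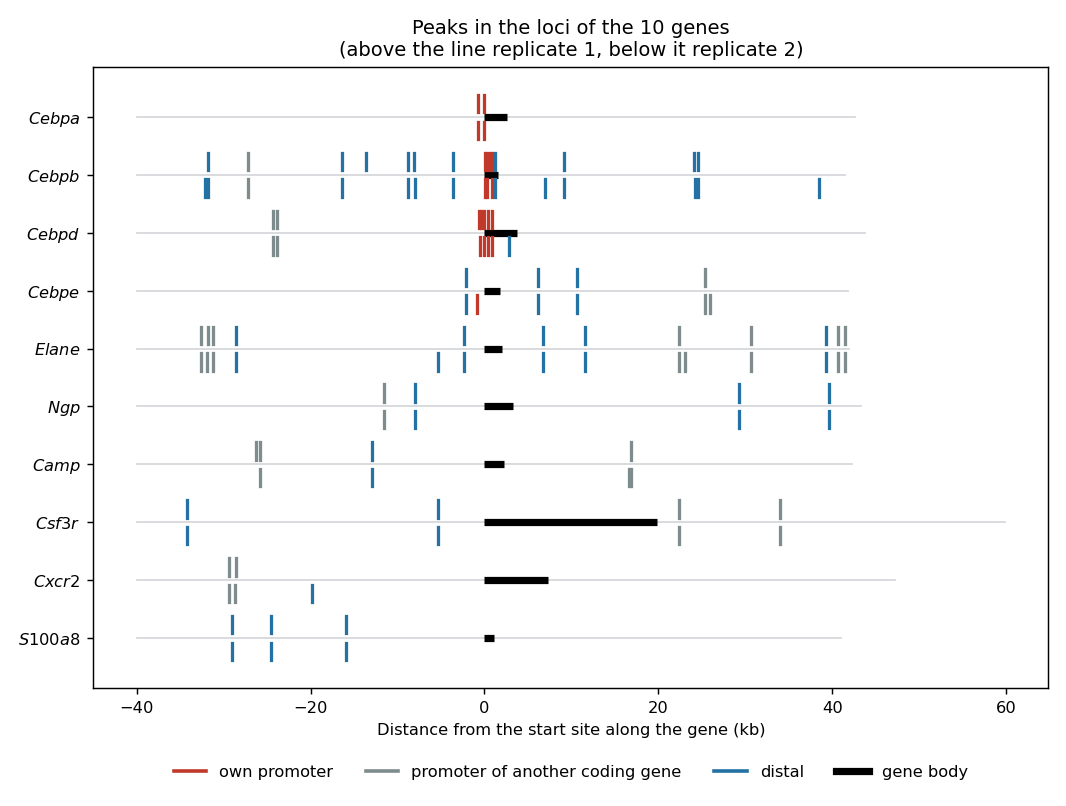
Peaks of the shorter list by their distance from the start site along each gene (horizontal, kb), for replicate 1 above and replicate 2 below the line of each gene, in red at the own promoter, in grey at the promoter of another coding gene and in blue elsewhere. Red marks stand at Cebpa, Cebpb and Cebpd in both libraries and at Cebpe in replicate 2, and the black bodies of the 6 lower genes carry no mark.

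The loci of the 10 genes held 57 peaks in replicate 1, against 63 peaks in replicate 2, with a mean of 60 ± 4.24 (SD, n = 2). Of these 11 and 10 lay at the own promoter, 19 and 21 at the promoter of another coding gene, and 27 and 32 at neither, here called distal. The 4 C/EBP loci held 28 and 31 peaks, of which 13 and 16 were distal. The 6 neutrophil protein loci held 29 and 32, of which 14 and 16 were distal and 0 at an own promoter. At least 1 distal peak in both libraries was found for 7 of 10 members, all but Cebpa, Cebpd and Cxcr2, against 66.2% of all protein-coding genes, which lies near that background.

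**Figure D3:**
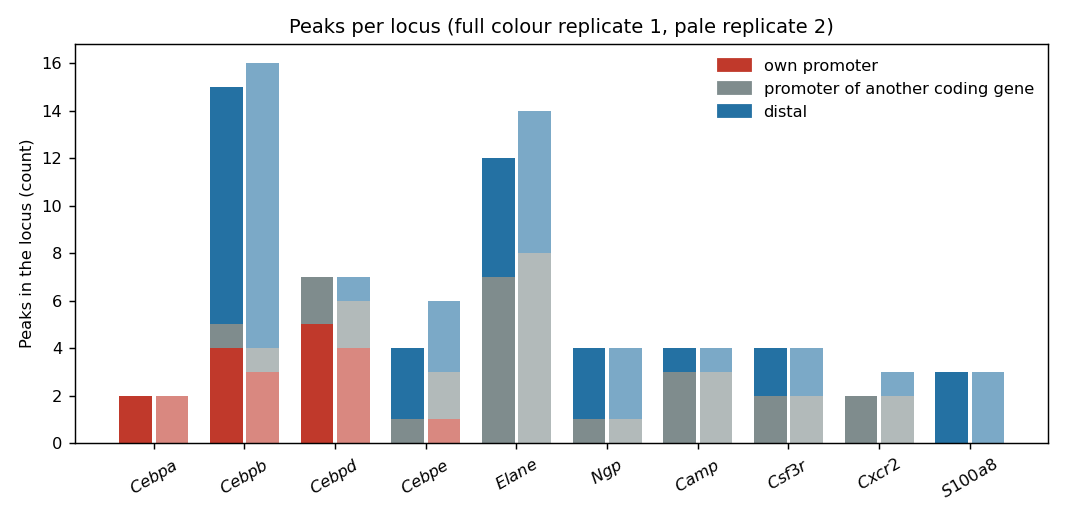
Number of peaks of the shorter list in each locus (vertical, count), in full colour for replicate 1 and pale for replicate 2, stacked as own promoter, promoter of another coding gene and distal. Cebpb (15 and 16) and Elane (12 and 14) have the most peaks, and Cebpa has 2 in each library, both at its promoter.

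Cebpa, on chromosome 7 from 35119293 to 35121928, encodes C/EBPα. Its strongest peak covered the start site in both libraries, from 35119141 to 35119360 with a signal of 1.70 in replicate 1 and to 35119340 with a signal of 2.01 in replicate 2. These signals, which are on the authors' scale, placed the peak 42.2% and 31.0% of the way down the ranking of its library. A weaker peak 0.706 kb upstream in replicate 1 and 0.709 kb upstream in replicate 2 had signals of 0.686 and 0.723. Between 36 and 38 kb downstream, where the mouse gene has an enhancer active in myeloid progenitors, the shorter lists held 0 peaks. The longer lists held 1 in each, with signals of 0.464 and 0.431, at ranks 50600 of 61285 and 65612 of 89476. The promoter of Cebpa was thus of middling strength, and its known distal enhancer reached the lenient threshold alone.

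Cebpb, on chromosome 2 from 167688915 to 167690418, encodes C/EBPβ and had the densest locus. It held 15 and 16 peaks, with 4 and 3 at its promoter and 10 and 12 distal, and 9 distal peaks of replicate 1 were found in replicate 2. Its distal peaks came to 1.23 and 1.47 per 10 kb, at percentiles 99.7 and 98.7 of all protein-coding genes, whose medians were 0.118 and 0.208. The peak at its start site had signals of 3.51 and 2.44, and a neighbour 0.326 kb and 0.336 kb downstream had 2.51 and 2.73. The strongest distal peaks, in introns of Tmem189, lay 31.8 and 31.9 kb upstream by their midpoints (signals 4.34 and 6.72), 3.59 kb upstream (4.99 and 4.89) and 8.79 and 8.78 kb upstream (3.85 and 2.98). The strongest peak of the locus stood at the shared promoter of Tmem189 and Gm20431, 27.2 kb upstream, with signals of 8.74 and 10.5.

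Cebpd, on chromosome 16 from 15887286 to 15891031, encodes C/EBPδ, which is induced by inflammatory signals. Of its 7 peaks in each library, 5 and 4 lay at its promoter. The strongest of them, at the start site, had signals of 1.64 and 2.09, and the others ranged from 0.612 to 1.03 in replicate 1 and from 0.415 to 1.13 in replicate 2. It had 0 distal peaks in replicate 1 and 1 in replicate 2, 2.85 kb downstream with a signal of 0.487. The remaining peaks lay at the promoter of Mzt2, a gene of the microtubule machinery, the stronger at 4.11 and 5.44. Cebpd was open along its start region while its surroundings were nearly without distal peaks.

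Cebpe, on chromosome 14 from 54710360 to 54712174 on the minus strand, encodes C/EBPε. Its promoter peak in replicate 2, 0.866 kb upstream, had a signal of 0.584 at rank 49866 of 60683, and replicate 1 had none. All 3 distal peaks of each library were shared. The peak between 5 and 7 kb downstream, where a known mouse enhancer of this gene lies, had signals of 1.24 and 2.43 at ranks 23285 of 42454 and 16040 of 60683. The peak 10.7 kb downstream had 1.83 and 1.76, and the peak 2.09 and 2.10 kb upstream had 1.15 and 1.42. The distal enhancer window of Cebpe was therefore open in both libraries while its promoter was called in 1. The strongest peak of the locus, 25.3 and 25.4 kb downstream, stood at the promoters of Acin1 and 1700123O20Rik with signals of 15.6 and 20.2.

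Elane, on chromosome 10 from 79886247 to 79888215, encodes neutrophil elastase, a serine protease of primary granules. Its locus is crowded, with 9 other coding genes, and 7 of 12 and 8 of 14 peaks lay at their promoters. The strongest stood at Ptbp1, a splicing regulator, with signals of 11.4 and 20.3. All 5 distal peaks of replicate 1 were found in replicate 2. The strongest distal peak lay 39.2 kb downstream with signals of 6.51 and 4.80, and the nearest to the gene in both libraries lay 2.40 kb upstream with 1.58 and 1.14. A peak 6.69 kb downstream had 2.39 and 2.11. In replicate 2 a further peak, with a signal of 1.06, lay in an intron of the neighbouring protease gene Prtn3.

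Ngp, on chromosome 9 from 110419747 to 110423012, encodes neutrophilic granule protein, and Camp, on the same chromosome from 109847379 to 109849617 on the minus strand, the precursor of the cathelicidin peptide. Both are secondary granule products. Ngp had 4 peaks in each library, of which 3 were distal and all shared. Its distal peak 8.04 kb upstream had signals of 3.15 and 3.46, that 29.3 kb downstream 1.92 and 2.06, and that 39.6 kb downstream 1.19 and 2.20. Camp had 4 peaks in each library and 1 distal peak, 13 kb upstream, with signals of 1.58 and 1.37. The strongest peaks of these loci stood at Ptpn23 (7.41 and 10.2) and at the cell cycle gene Cdc25a (9.07 and 16.8). Open sites near both granule genes were thus the promoters of other genes and a few shared distal sites.

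Csf3r, on chromosome 4 from 126024550 to 126044440, encodes the receptor of the growth factor G-CSF, and Cxcr2, on chromosome 1 from 74153989 to 74161246, a chemokine receptor that draws neutrophils from the marrow. Csf3r had 4 peaks in each library, 2 of them distal and both shared. The one 5.34 and 5.37 kb upstream had signals of 0.686 and 1.45, and the one 34.2 kb upstream had 0.728 and 0.718. The rest stood at Mrps15 (2.30 and 2.92) and Oscp1 (3.80 and 5.54). Cxcr2 had 2 and 3 peaks, with its strongest at the promoters of Rufy4 and Tns1, 28.6 kb upstream, at 3.19 and 4.32. Its single distal peak, 19.9 kb upstream in replicate 2, had a signal of 0.518. Of the 6 neutrophil protein genes Cxcr2 alone had no distal peak in replicate 1.

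S100a8, on chromosome 3 from 90668978 to 90670035, encodes a subunit of calprotectin, the abundant cytosolic protein of neutrophils. All 3 of its peaks in each library were distal and shared, and no peak of another promoter lay in its locus. The peak 15.9 kb upstream had signals of 1.15 and 0.712, that 24.6 kb upstream 0.665 and 0.605, and that 29.0 kb upstream 0.549 and 0.784. They lay between 58.8% and 93.8% of the way down the ranking in replicate 1 and between 67.1% and 80.4% in replicate 2, so all were in the weaker part of their library.

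The peaks of the loci were shared between the libraries about as often as those of the whole library in replicate 1, and more often in replicate 2. Their median place was 42.2% and 31% down the ranking in replicates 1 and 2. Whether the sharing follows from this place was not tested. Of 57 locus peaks of replicate 1, 54 overlapped a peak of replicate 2 (94.7%, 95% Wilson interval 85.6 to 98.2), against 93.8% of all its peaks. Of 63 of replicate 2, 53 overlapped one of replicate 1 (84.1%, 73.2 to 91.1), against 65.7% of all its peaks. For distal peaks it was 26 of 27 (96.3%, 81.7 to 99.3) against 93.6% over all distal peaks of replicate 1. In replicate 2 it was 26 of 32 (81.2%, 64.7 to 91.1) against 57.7% over all. Over the 54 overlapping pairs Spearman's rho of the signals was 0.94, a description across peaks that share loci and libraries. The intervals cover counting error only.

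**Figure D4:**
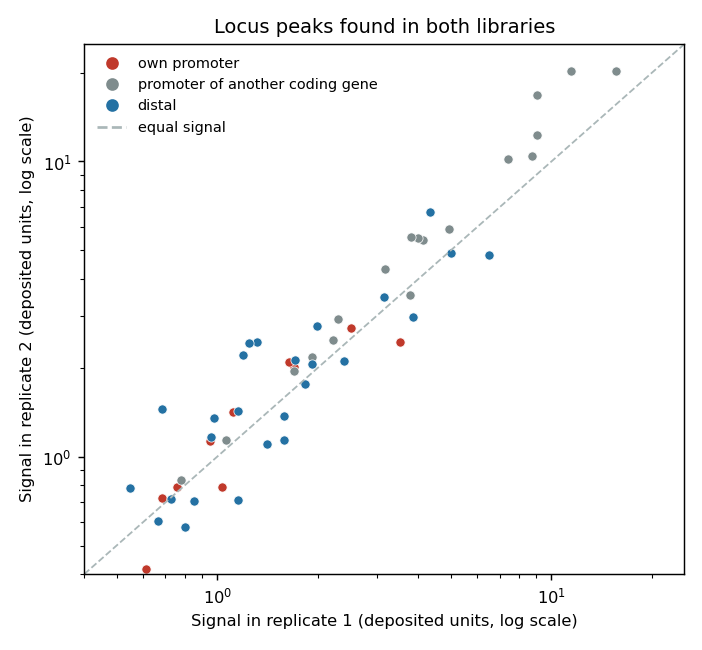
Signal of the 54 locus peaks found in both libraries, in replicate 1 (horizontal) and replicate 2 (vertical), on log scales in deposited units, coloured by class, with a dashed line at equal signal. The pairs follow the line, with promoters of other genes (grey) at the upper end, where the highest values are 15.6 in replicate 1 and 20.3 in replicate 2.

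Peaks at other genes' promoters were the strong ones. Their median place was 20.1% and 16.0% down the ranking in replicates 1 and 2, against 64.2% and 45.9% for own promoter peaks and 52.2% and 42.8% for distal peaks. Their signals ranged from 0.781 to 15.6 and from 0.830 to 20.3. Those of own promoter peaks ranged from 0.612 to 3.51 and from 0.415 to 2.73. Distal peaks ranged from 0.549 to 6.51 and from 0.487 to 6.72.

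Footprints inside the locus peaks numbered 142 in replicate 1 and 204 in replicate 2, with a mean of 173 ± 43.8 (SD, n = 2). Of those of replicate 1, 70.4% were shared with replicate 2, with an overlap of at least 50% of the shorter footprint, and of those of replicate 2, 49.5% with replicate 1. The C/EBP pattern TTGCNNAA touched a footprint widened by 5 bases in 2 of 142 cases (1.41%, Wilson 0.387 to 4.99) and 5 of 204 (2.45%, 1.05 to 5.61), against 0.852% and 1.07% of footprints in all peaks. Distal locus peaks with such a footprint numbered 1 of 27 and 3 of 32, against 1.96% and 2.82% of all distal peaks. They lay near Cebpe in both libraries, and near Cebpb and Csf3r in replicate 2. In the enhancer window of Cebpe the 3 matches held 0 bases protected in both libraries, although a shared footprint lay close to the first of them. AGATAA, the pattern searched for GATA factors, lay in that window at bases 98 to 103, with all 6 bases protected in both libraries. With counts this small no difference from other peaks is shown.

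The promoter of Ngp, which had no peak, holds the C/EBP pattern. The RefSeq promoter table, on assembly GRCm38.p6, matched 8 of the 10 genes, all but Cebpd and Cebpe, and of these Ngp alone held TTGCNNAA within 250 bases before to 50 bases after the start. Its sequence is shown with both matches in capitals, their first bases 138 and 11 bases before the RefSeq start.
Ngp promoter, chr9:110419558-110419857, plus strand: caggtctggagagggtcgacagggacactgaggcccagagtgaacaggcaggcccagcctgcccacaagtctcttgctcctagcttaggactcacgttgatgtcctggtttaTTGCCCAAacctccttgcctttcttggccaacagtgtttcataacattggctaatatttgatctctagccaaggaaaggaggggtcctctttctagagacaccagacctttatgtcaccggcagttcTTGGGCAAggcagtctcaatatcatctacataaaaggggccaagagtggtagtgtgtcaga
Of 32851 promoters of that length 10.8% held the pattern, and Ngp alone among 8 matched genes lies near that share.

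Some of the distal peaks carried the pattern of CTCF, the architectural factor that anchors chromatin loops. The pattern searched for, CC with 3 free bases, AGG, 1 free base and GGC on both strands, touched a widened footprint in 8 of 27 distal locus peaks of replicate 1, against 13.1% of all distal peaks, and in 8 of 32 of replicate 2, against 9.05%. In each library these lay in 6 loci, those of Cebpb, Cebpe, Csf3r, Elane, Ngp and S100a8. A shorter and more lenient pattern, CA with 2 free bases, AG, 2 free bases and GGC, was added after the sequences were seen and can overlap the longer. It touched one in 11 of 27 and 9 of 32, against 23.8% and 17.3%. These counts carry no test.

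A whole CTCF pattern, longer or shorter, lay inside a footprint of both libraries at 13 sites in 8 loci, 11 of them in distal peaks of 6 loci. Of the 27 distal locus peaks of replicate 1, 6 met this with the longer pattern, against 9.82% of all distal peaks. With either pattern 11 met it, against 18.9%. The shorter pattern was added after these sequences were seen, so no excess can be read from that count. These counts carry no test either. They are shown as the stretch protected in both libraries, read on the strand of the pattern, with the pattern in capitals and with the distance from the start site of the member gene.
Cebpa, 0.05 kb upstream, chr7:35119234-35119255, plus strand: tggaCACCAGGGGGCgatgccc
Cebpb, 8.78 kb upstream, chr2:167680116-167680161, minus strand: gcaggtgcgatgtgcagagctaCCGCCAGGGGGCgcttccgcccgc
Cebpb, 8.06 kb upstream, chr2:167680831-167680868, plus strand: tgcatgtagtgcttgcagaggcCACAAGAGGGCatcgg
Cebpb, 3.58 kb upstream, chr2:167685302-167685349, plus strand: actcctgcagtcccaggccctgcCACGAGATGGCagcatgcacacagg
Cebpe, 10.7 kb downstream, chr14:54701493-54701516, minus strand: gcatggCCACCAGGAGGCagcaaa
Cebpe, 2.1 kb upstream, chr14:54714259-54714281, plus strand: gctattagCCACTAGGTGGCaat
Elane, 2.4 kb upstream, chr10:79883838-79883863, plus strand: gcagtCACCAGGTGGCgctgtgctta
Elane, 39.3 kb downstream, chr10:79925471-79925516, plus strand: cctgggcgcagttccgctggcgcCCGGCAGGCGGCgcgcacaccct
Ngp, 8.04 kb upstream, chr9:110411691-110411721, plus strand: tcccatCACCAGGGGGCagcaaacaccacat
Ngp, 29.3 kb downstream, chr9:110449031-110449057, plus strand: aaagCCCCTAGGTGGCactgttgtcct
Camp, 13 kb upstream, chr9:109862590-109862622, minus strand: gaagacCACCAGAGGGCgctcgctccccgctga
Cxcr2, 28.7 kb upstream, chr1:74125299-74125321, minus strand: tgttgcCAGTAGATGGCggaaag
S100a8, 15.9 kb upstream, chr3:90653061-90653084, minus strand: atctcCCAGAAGGTGGCgccaaag
The capitals of 6 of these sequences hold the longer pattern and those of the other 7 the shorter one. The footprints were long at several sites, with 46 bases in both libraries at the Cebpb site 8.78 kb upstream and 48 in both at the site 3.58 kb upstream. At Elane, Ngp and Camp the strongest distal peak in both libraries was among these sites, and Camp had no other distal peak. At S100a8 and also at Cebpb and Cebpe, whose promoters were called in both libraries and in replicate 2, this held in replicate 1 alone. In replicate 2 a distal peak without such a site was stronger. The signals were 0.784 against 0.712 at S100a8, 6.72 against 4.89 at Cebpb and 2.43 against 1.76 at Cebpe. Csf3r and Cxcr2 had no such site in a distal peak. The CTCF patterns of Ngp lay on either side of the gene, 8.04 kb upstream and 29.3 kb downstream. So did those of Elane, 2.40 kb upstream and 39.3 kb downstream, and of Cebpe, 2.10 kb upstream and 10.7 kb downstream. At Cebpb, Camp and S100a8 the sites in distal peaks all lay upstream. The upstream sites of Ngp, Elane and Camp hold the shorter pattern alone, which was added after the sequences were seen. A match is a description of letters in a protected stretch, and binding was not measured.

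Promoter peaks were also counted at related genes, without regard to the CpG content of their promoters. Of all protein-coding genes 53.4% had a peak in replicate 1, 56.9% in replicate 2 and 53.1% in both. Both libraries had one at all 6 relatives and partners of the C/EBP family, among them Ddit3, a stress-induced member, Atf4, a leucine zipper partner, and Cebpg. So did all 6 genes of a list made as myeloid regulators. Its strongest by mean rank were Per3, a circadian clock gene that the list holds although it is not known as a myeloid regulator, and the transcription factor genes Irf8 and Runx1. Of 5 other primary granule genes 1 had a peak in both libraries, Prss57, which encodes a serine protease, and Ctsg, Mpo and Ms4a3 had none in either. Of 8 other secondary and tertiary granule genes 0 had one in either library, among them Cd177, Chil3 and Fcnb. Of 11 further genes of mature neutrophils 2 had one in replicate 1 and 3 in replicate 2. Those in both were Itgb2 and Itgam, adhesion molecules that other leukocytes also carry, while Cxcr1, Fpr1 and Fpr2 had none in either.

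Genes of other cell types were counted in the same way, beside the same shares of 53.4% and 56.9% of all protein-coding genes. B cell genes had 6 of 6 in both libraries, led by Ebf1, Cd79b and Cd79a. T cell genes had 3 and 4 of 6, with Lck, Cd3g and Bcl11b in both and Cd3d and Cd4 in neither. Erythroid genes had 2 and 4 of 5, with Tfrc and Epor in both and Alas2 in neither, and macrophage and monocyte genes had 2 and 4 of 6, with Hmox1 and Spic in both and Adgre1 and Csf1r in neither. With lists this short, the T cell, erythroid and macrophage counts show no clear difference from those shares. The other lists are short too. Over all CpG-rich promoters 82.7% had a peak in both libraries, and over all CpG-poor promoters 23.6%. Whether the high and low counts of the lists follow CpG content was not tested. Liver genes, with Alb, Apoa1 and Cyp7a1 among them, had 0 of 5 in both libraries.

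**Figure D5:**
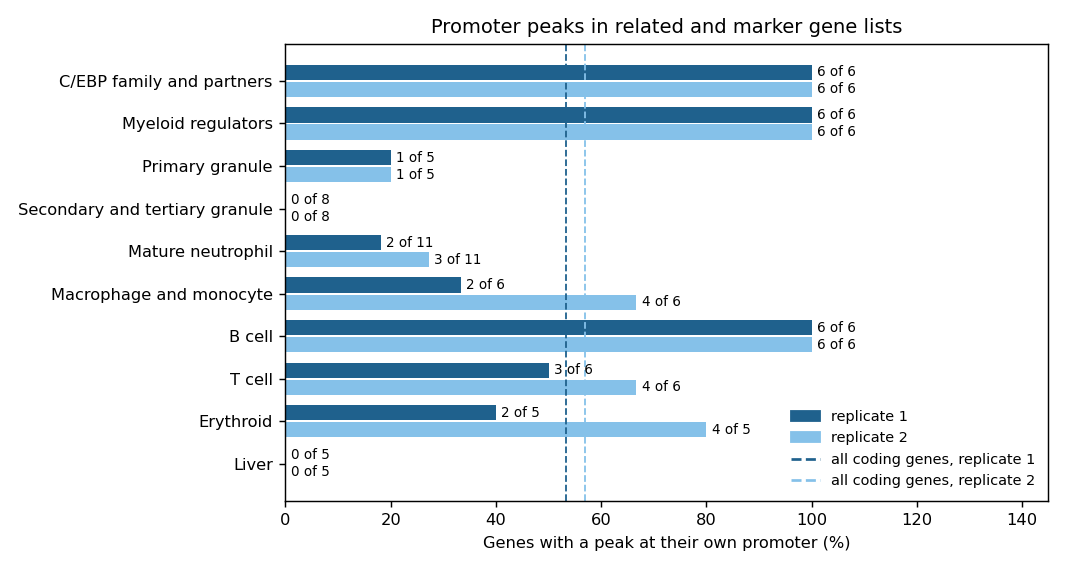
Share of genes with a peak of the shorter list at their own promoter (horizontal, %) for 10 lists, in dark blue for replicate 1 and light blue for replicate 2, with the count beside each bar and dashed lines at 53.4% and 56.9%, the shares of all protein-coding genes. The lists named for C/EBP relatives, myeloid regulators and B cells are at 6 of 6, and the secondary and tertiary granule list is at 0 of 8.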

How the data were processed

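DNase-seq of mouse spleen was analysed from 2 libraries of 1 group. The authors made peaks, footprints and a cut rate track for each library from its own alignments on mm10, without pooling, per the readme that was deposited with them. Not given in the sources used here are the aligner and the callers. The deposited signal per peak is the authors' own scale and served to rank peaks within a library. The deposited FDR (q-value) track lists runs under 0.05, and the deposited footprints carry an FDR threshold of 0.01. Reads of a hybrid mapped to 1 parent's reference can be lost where the alleles differ, which was not tested.

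Start sites came from the basic GENCODE vM21 annotation, and peaks were assigned to a locus by midpoint. Own promoters were 1 kb to either side of any start site. Peaks were shared with at least 1 base of overlap. A further 64 genes in 10 lists, with 1 more not reported here, and 12 sequence patterns were examined, and 1 pattern was added later. Sequence is RefSeq's. Members and lists were chosen with earlier results of these data known. Named were all members, their promoter peaks, the strongest peaks of each other class, the enhancer windows and up to 3 open and 3 closed genes of each list. No test between groups was possible. The counting steps were tested on simulated data, with Python 3.11, numpy 2.4.6, pandas 2.3.3 and scipy 1.17.1. Alternatives were other lists, thresholds, flanks, promoter widths and single libraries.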

Additional observations from a re-analysis of the deposited data

How the results depend on the processing

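No paired analysis was possible because the samples form 1 group. Of 58 alternative settings over 8 results, 41 left the result within 1.5 times its value or within its spread, and 17 moved it beyond. For the median place of locus peaks in the ranking, leaving out a library could not move the result by this rule. Each library always lies within the spread of both. The results are counts, shares and medians without a direction, so none could be reversed. Members with an own promoter peak in both libraries numbered between 3 and 4 in every alternative, and a promoter of 2 kb to either side gave 4 by adding Cebpe in both. Counts per library are means of the libraries, 60 locus peaks, 29.5 distal peaks and 173 footprints. With each list limited to peaks above its median signal there were 38 peaks, 16 of them distal, and with the longer list 48.5 distal peaks. Flanks of 10 kb gave 26 peaks, 14.5 of them distal, and 72 footprints, and flanks of 100 kb gave 149, 86 and 420.5. With flanks of 10 kb the distal peaks of replicate 1 found in replicate 2 came to 100% (13 of 13), and the median place of locus peaks in the ranking was 45.3% against 36.6%. Footprints with a C/EBP pattern, 3.5 per library, fell to 1.0 with a G required at the fifth base and to 1.0 without widening, and were between 2 and 5 when either library was left out. Closed promoters with a listed FDR run, 0.5 per library, came to 1.0 with 2 kb and lay between 0 and 1 when either library was left out. Leaving out a library left between 57 and 63 locus peaks, 27 and 32 distal peaks, and 142 and 204 footprints. Total depth is unknown, and replicate 2 had more peaks, so a site called in it alone may have been missed in replicate 1.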
